A study of Mus musculus with 18 samples.

Results

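The expression of 10 genes, *Pth1r*, *Scarf2*, *Chrna4*, *Card10*, *Cebpa*, *Coch*, *Crip1*, *Arpc1b*, *Cmtm8* and *Acbd4*, was followed through RNA-seq of 18 mouse libraries. These genes were picked because their values were higher in *Kdm2b* conditional knockout (cKO) hippocampi, neurospheres and cortices than in controls. Their rise in these 3 comparisons is therefore what selected them, and it is described here without a test. A comparison of *Rnf2* cKO hippocampi with controls took no part in the choice and was tested. Each gene was read by its name, from the entry with the highest mean where several entries hold the name. The tables list 23138 named genes for *Kdm2b* hippocampi, 23398 for neurospheres and 54429 each for *Kdm2b* cortices and *Rnf2* hippocampi, and 11054 genes passed the filter on low values in all 4. Of the 10 genes, 9 are among these 11054, because *Cmtm8* was under the filter in the *Rnf2* table.

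The study compared 3 control with 3 *Kdm2b* cKO hippocampi, 2 with 2 libraries of hippocampal neurospheres, 2 with 2 cortices, and 2 control with 2 *Rnf2* cKO hippocampi, all labelled postnatal day 0. *Kdm2b* cKO samples have the genotype *Kdm2b* *Emx1*-ΔCxxC, in which *Emx1*-Cre removes exon 13, the exon that encodes the CxxC zinc finger, and *Rnf2* cKO samples have the genotype *Rnf2* *Emx1*-cKO. Controls carried 1 or 2 floxed alleles of the same gene (*Kdm2b* fl/+ or *Kdm2b* fl/fl, and *Rnf2* fl/+ or *Rnf2* fl/fl), and the labels do not say which library had which. *Emx1*-Cre acts in progenitors of the dorsal telencephalon and their descendants, so vessels, microglia and meninges in the same tissue keep the intact allele, and the neurospheres are neural progenitor cells grown out of hippocampal tissue with FGF2 and EGF. Nothing in the labels says whether libraries came from separate animals or cultures, so p values measure only the spread between these libraries.

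KDM2B binds stretches of DNA rich in unmethylated CpG dinucleotides (CpG islands) through its CxxC zinc finger. It brings a variant Polycomb repressive complex 1 (PRC1.1) to these sites, where the ubiquitin ligase RING1B, the product of *Rnf2*, marks histone H2A at lysine K119. RING1B serves in the other PRC1 complexes too, so the 2 knockouts touch overlapping machinery by different routes.

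Because the deleted domain recognises CpG dinucleotides, the DNA just before annotated start sites of the genes is shown first. RefSeq start sites of GRCm38.p6 were matched by name for 9 of the 10 genes (*Acbd4* is only named here). The 4 windows below cover 250 bases before a start, written 5′ to 3′ on the gene's strand, with each CpG in capitals. *Scarf2* is shown as a window with many CpG, *Crip1* as the gene whose richest window held the fewest, and both ends of *Pth1r* because its start sites differ most. The *Crip1* window and the innermost *Pth1r* window lie inside the gene intervals given further below.
*Scarf2*, chr16:17797032-17797281, plus strand: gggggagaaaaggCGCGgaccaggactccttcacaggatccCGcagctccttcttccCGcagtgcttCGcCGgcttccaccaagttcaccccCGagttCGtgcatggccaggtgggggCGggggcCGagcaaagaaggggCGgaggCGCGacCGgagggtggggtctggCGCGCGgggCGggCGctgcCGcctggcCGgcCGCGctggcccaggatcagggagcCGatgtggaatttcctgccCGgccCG
*Crip1*, chr12:113151762-113152011, plus strand: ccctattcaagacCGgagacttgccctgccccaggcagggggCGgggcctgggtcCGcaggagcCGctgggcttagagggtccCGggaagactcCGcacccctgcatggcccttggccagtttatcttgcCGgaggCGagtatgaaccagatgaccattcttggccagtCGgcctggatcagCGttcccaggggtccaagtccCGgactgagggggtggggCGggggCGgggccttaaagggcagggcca
*Pth1r*, outermost start, chr9:110747146-110747395, minus strand: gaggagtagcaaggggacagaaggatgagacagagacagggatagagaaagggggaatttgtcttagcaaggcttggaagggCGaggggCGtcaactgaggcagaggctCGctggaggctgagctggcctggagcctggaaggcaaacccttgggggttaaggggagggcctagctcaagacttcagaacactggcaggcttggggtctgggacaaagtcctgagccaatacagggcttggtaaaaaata
*Pth1r*, innermost start, chr9:110742611-110742860, minus strand: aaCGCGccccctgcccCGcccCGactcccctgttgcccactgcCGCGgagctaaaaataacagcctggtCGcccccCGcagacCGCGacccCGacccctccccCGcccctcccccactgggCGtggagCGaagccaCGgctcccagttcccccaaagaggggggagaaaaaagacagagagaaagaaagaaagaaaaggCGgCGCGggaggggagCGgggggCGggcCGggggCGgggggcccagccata
These windows hold 26 CpG in *Scarf2*, 13 in *Crip1*, and 3 and 22 at the outermost and innermost starts of *Pth1r*, the receptor gene with the largest difference in cKO hippocampi.

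Windows of 300 bases, which add the first 50 bases of the transcript, were counted for all genes of the RefSeq table. *Card10* and *Scarf2* held 34 CpG each, *Chrna4* 33, *Coch* 32, *Cebpa* and *Arpc1b* 29 each, *Cmtm8* 24 and *Crip1* 18, and the 3 starts of *Pth1r* held 5, 23 and 27. Taking the richest window of each gene, the median was 29 CpG over the 9 genes, and 8 of the 9 (88.9%) had at least 20. Over 17492 protein-coding genes the median was 15 and 38.9% had at least 20, while the 8648 genes with a window among those tested in all 3 *Kdm2b* tables had a median of 23 and 64.5%. Among other genes called higher in all 3 *Kdm2b* tables, 30 had a window, with a median of 22 and 63.3% with at least 20. High CpG counts are thus common among genes expressed in these tissues, and the counts are a description of 9 genes. The letters CTTTGA on either strand, the core of the motif bound by TCF/LEF factors, occur in none of the 11 windows of these 9 genes. They occur in 14.4% of protein-coding genes and 10.3% of the genes tested in all 3 *Kdm2b* tables. Among the 30 others called higher in all 3, the share was 3.33%. The 9 genes are too few to set their absence apart from these shares, so nothing is read from it.

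**Figure D1:**
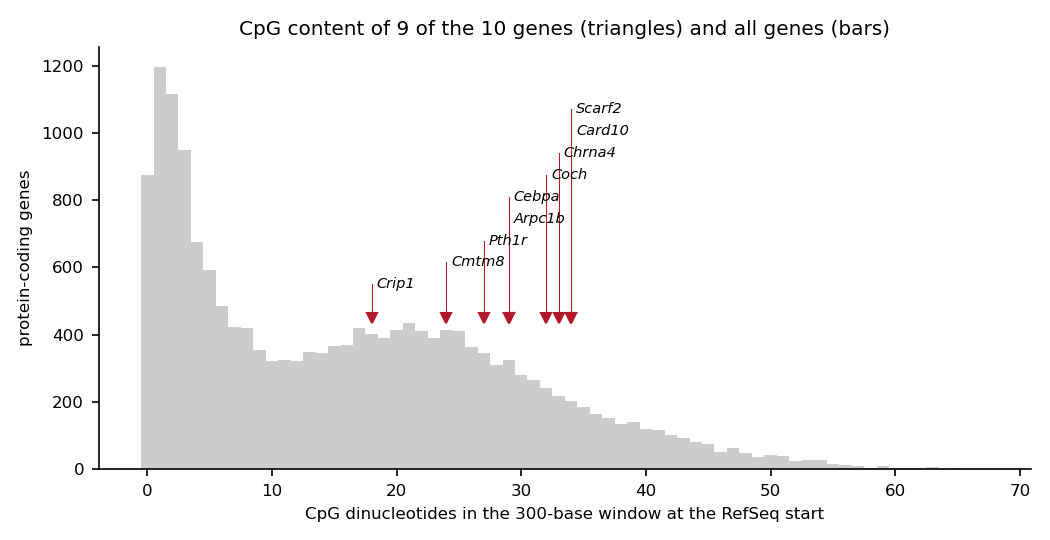
Number of CpG dinucleotides in the 300-base RefSeq window (horizontal axis) against the number of protein-coding genes (grey bars, vertical axis), with a triangle for the richest window of each of 9 genes. The triangles run from 18 (*Crip1*) to 34 (*Scarf2* and *Card10*), all above the median of 15 over protein-coding genes. The median of the genes tested in all 3 *Kdm2b* tables was 23.

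The whole-gene values of the targeted genes were read before other results. *Kdm2b* was at 28.1 to 31.9 FPKM (fragments scaled to the length of the gene and to all mapped fragments of a library) in control and 26.2 to 28.2 in cKO hippocampi, 21.9 to 22.2 and 22.5 to 23.7 in neurospheres, and 15.7 to 16.9 and 14.7 to 14.9 in cortices. *Rnf2* was at 30.8 and 32.3 FPKM in its controls and at 27.8 and 28.5 in its cKO hippocampi, with a log2 difference of -0.16 (limma adjusted p = 0.762). These values cover the whole gene and do not separate the deleted part, so they do not check the labels. Markers of the dorsal telencephalon summed to 349 to 805 FPKM in the tissue libraries and 120.9 to 136.9 in neurospheres. The sex-linked transcript *Xist* set apart cKO hippocampus 1 (153.8 FPKM against at most 0.0732 in the other 5), cKO neurospheres 1 (0.361 against 140.0 to 175.2) and control cortex 1 (0.0177 against 132.5 to 189.0), so these groups mix sexes. Library cKO neurospheres 1 also held transcripts of intestinal epithelium. All 13 genes of a list written after the values were seen reached 0.5 FPKM there, with a sum of 179.4 FPKM, against 0.424 to 2.86 in the other 3 neurosphere libraries and 0.321 to 1.28 in all others. Library control neurospheres 1 had 29.3% of its FPKM on entries without a gene name.

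*Pth1r*, the G protein-coupled receptor for parathyroid hormone and its related peptide, showed the largest difference of the 10 genes in cKO hippocampi and cortices. It measured 3.54, 3.72 and 3.16 FPKM in the 3 control hippocampi and 15.2, 14.8 and 12.2 FPKM in the 3 cKO hippocampi. Each cKO library lay far above every control, at 4.05 times the control mean, a log2 difference of 1.75 (SE 0.10). Differences on the log2 scale are cKO minus control of log2(FPKM + 1) throughout, and this scale makes the change of low values look smaller. Neurospheres had 1.85 and 1.01 FPKM in controls and 6.06 and 6.30 in cKO, a log2 difference of 1.58 (SE 0.19). In cortices the controls stood at 2.68 and 2.67 FPKM and the cKO at 14.6 and 13.55, a log2 difference of 2.03 (SE 0.08) that rests on 173 and 166 reads against 839 and 741. The cKO values were well separated from the controls in all 3 comparisons. In bulk tissue, more cells that express a gene and more RNA of it per cell cannot be told apart. *Pth1r* lies on chr9:110722085-110747145 (minus strand) and overlaps *Myl3* on the opposite strand by 5285 bases. *Myl3* never exceeded 0.932 FPKM.

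*Scarf2*, a scavenger receptor with EGF-like repeats, came next among the cell surface receptors. Its values were 2.89, 2.78 and 2.92 FPKM in control hippocampi and 9.16, 9.93 and 9.40 in cKO hippocampi, where all cKO libraries sat at about the same high level (3.32 times the control mean, log2 difference 1.44, SE 0.08). Control neurospheres measured 5.00 and 4.87 FPKM and cKO neurospheres 11.3 and 14.4 (log2 difference 1.21, SE 0.13). Cortical values were 0.851 and 0.821 FPKM in controls and 3.26 and 2.37 in cKO, from 72 and 67 against 246 and 170 reads (log2 difference 1.05, SE 0.15). The groups did not overlap in any of these 3 comparisons. The gene lies on chr16:17797282-17808293 (plus strand).

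*Chrna4*, the α4 subunit of nicotinic acetylcholine receptors, had even values within each group. Control hippocampi measured 3.50, 3.52 and 3.49 FPKM and cKO hippocampi 5.82, 5.62 and 5.64. The spread within each group was small beside the gap between groups, a log2 difference of 0.57 (SE 0.08). Neurospheres went from 7.29 and 7.59 FPKM in controls to 11.4 and 11.3 in cKO (log2 difference 0.55, SE 0.09), and cortices from 0.886 and 0.984 to 1.79 and 2.03 (0.59, SE 0.12). The gene sits on chr2:181018380-181043546 (minus strand).

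**Figure D2:**
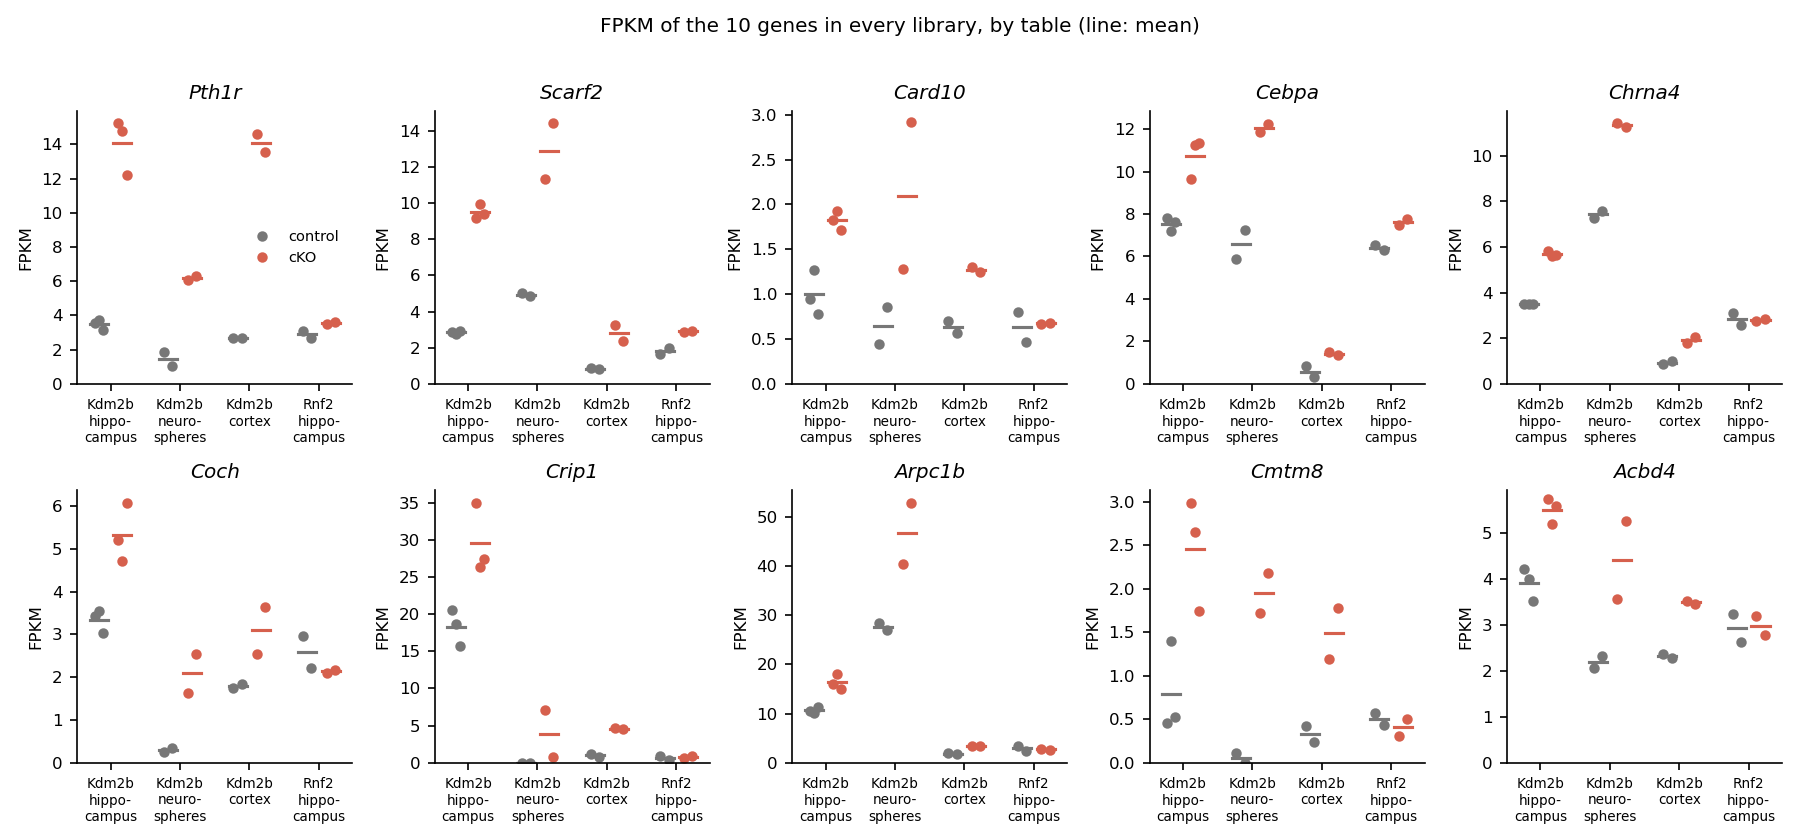
FPKM (vertical axis, from 0, with its own scale for each gene) of the 10 genes in every library of the 4 tables (horizontal axis), in grey for controls and red for cKO, with a line at each group's mean. In the 3 *Kdm2b* tables all red points lie above the grey ones for each gene, which is how the genes were picked, while in the *Rnf2* table red and grey points overlap for 6 genes, lie higher in cKO for *Pth1r*, *Scarf2* and *Cebpa*, and lie lower in cKO for *Coch*.

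*Cebpa*, which encodes the transcription factor C/EBPα of myeloid, liver and fat cell differentiation, differed by less than the 3 receptor genes in hippocampi. It was at 7.80, 7.18 and 7.62 FPKM in control and 9.64, 11.2 and 11.3 FPKM in cKO hippocampi (log2 difference 0.46, SE 0.08). All cKO libraries stood above the controls. In neurospheres it measured 5.90 and 7.25 FPKM in controls and 11.9 and 12.2 in cKO (0.79, SE 0.12). Cortices had low values of 0.826 and 0.303 FPKM in controls and 1.51 and 1.34 in cKO, from 48 and 17 against 78 and 66 reads (0.65, SE 0.20), and the 2 controls differed from each other by more than the 2 cKO. Without control cortex 2 the cortical difference was 0.41, and without control cortex 1 it was 0.89. The gene lies on chr7:35119293-35121928 (plus strand), an interval as long as its annotated length of 2636 bases, and an antisense gene overlaps it by 313 bases.

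Because C/EBPα is also made by microglia, the 10 microglial markers were read beside it. Their summed level was 70.4 to 83.0 FPKM in control and 93.5 to 118.1 in cKO hippocampi, with 6 of 10 called higher. In cortices it was 24.5 to 26.2 against 34.9 to 40.7, with 3 of 9 tested called higher. Over all tested genes 3.89% were called higher in hippocampi and 4.73% in cortices. In neurospheres 8 of the 10 markers, *Csf1r*, *Cx3cr1* and *Aif1* among them, were listed at 0 in both controls and at 0 in cKO library 2. Only *Aif1* and *Trem2* were at 0 in every neurosphere library. The 10 markers summed to 21.7 to 26.0 FPKM in control and 22.8 to 23.0 in cKO neurospheres. The part of microglia in the values of *Cebpa* was not tested in any of these comparisons.

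*Card10*, a CARD scaffold that joins BCL10 and MALT1 to activate NF-κB, was low throughout. Its values ran from 0.783 to 1.27 FPKM in control and 1.71 to 1.92 in cKO hippocampi (log2 difference 0.50, SE 0.12). In neurospheres they were 0.438 and 0.853 FPKM in controls and 1.28 and 2.92 in cKO (0.87, SE 0.30), and in cortices 0.570 and 0.706 against 1.24 and 1.31 (0.47, SE 0.13). The 2 cKO neurosphere libraries differed from each other by more than the lower of them differed from the controls, and the neurosphere difference was 0.48 without cKO library 2 and 1.26 without cKO library 1. *Card10* is on chr15:78775138-78803042 (minus strand).

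*Coch* encodes cochlin, a secreted matrix protein known from the inner ear. Control hippocampi measured 3.43, 3.55 and 3.02 FPKM and cKO hippocampi 5.20, 4.70 and 6.08 (log2 difference 0.54, SE 0.11). Neurospheres showed its largest difference, from 0.245 and 0.333 FPKM in controls to 1.64 and 2.55 in cKO (1.25, SE 0.21). In cortices it went from 1.76 and 1.84 FPKM to 2.55 and 3.64 (0.54, SE 0.15), and the difference was 0.34, under the call threshold, without cKO cortex 2. All cKO libraries lay above the controls in each table, with a wider spread among cKO than among control cortices. The locus is chr12:51593341-51605771 (plus strand).

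*Crip1*, which encodes a small LIM-domain protein abundant in intestine and immune cells, had very different values in the tables. It was at 20.5, 18.6 and 15.8 FPKM in control and 34.9, 26.3 and 27.5 FPKM in cKO hippocampi (log2 difference 0.66, SE 0.12). Cortices had 1.23 and 0.763 FPKM in controls and 4.71 and 4.48 in cKO, from 62 and 37 against 211 and 191 reads (1.50, SE 0.14). Both comparisons separated the groups. In neurospheres *Crip1* was listed at 0 in both controls, at 7.11 FPKM in cKO library 1 and at 0.733 FPKM in cKO library 2. Its high value there rests on the library that held intestinal transcripts, and without that library it fell under the filter. The part of the intestinal transcripts in this value was not tested. *Crip1* lies on chr12:113146316-113153879 (plus strand).

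*Arpc1b* encodes a subunit of the Arp2/3 complex, which nucleates branched actin. Control hippocampi measured 10.5, 10.2 and 11.4 FPKM and cKO hippocampi 16.0, 17.9 and 15.0, with a clear gap between the groups (log2 difference 0.57, SE 0.08). In neurospheres, where it was the most abundant of the 10 genes, it went from 28.4 and 26.9 FPKM to 40.3 and 52.8 (0.72, SE 0.14), and in cortices from 1.98 and 1.74 to 3.31 and 3.44 (0.61, SE 0.10). *Arpc1b* is at chr5:145114215-145130705 (plus strand) and overlaps *Pdap1* on the opposite strand by 1937 bases. Reads of overlapping genes cannot be told apart where the counting did not use strand, which the sources used here do not state.

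*Cmtm8*, a membrane protein of the chemokine-like factor and MARVEL domain family linked to EGF receptor turnover, had the lowest control values of the 10 in hippocampi and cortices. Hippocampal controls were at 0.458, 1.40 and 0.529 FPKM and cKO at 2.99, 2.66 and 1.74 (log2 difference 0.97, SE 0.21), and control 2 came close to the lowest cKO library. Neurospheres had 0.111 and 0 FPKM in controls and 1.73 and 2.18 in cKO (1.48, SE 0.19). Cortical values of 0.427 and 0.235 FPKM against 1.20 and 1.78 rest on 32 and 17 against 80 and 113 reads (0.90, SE 0.18). The gene is on chr9:114789345-114844156 (minus strand).

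*Acbd4*, an acyl-CoA binding protein at the peroxisome, had the smallest difference of the 10 in hippocampi and cortices. It measured 4.22, 3.99 and 3.53 FPKM in control and 5.75, 5.20 and 5.59 in cKO hippocampi (log2 difference 0.41, SE 0.09). Neurospheres had 2.07 and 2.33 FPKM in controls and 3.57 and 5.27 in cKO (0.74, SE 0.18), and cortices 2.36 and 2.29 against 3.52 and 3.46 (0.43, SE 0.09). The hippocampal value is just over the threshold of 0.4 used for calls and fell to 0.35 without control hippocampus 3. *Acbd4* lies on chr11:103101682-103112200 (plus strand).

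Calls required a log2 difference over 0.4 in size and an unadjusted limma p under 0.05. By this rule, all 10 genes were called higher in each *Kdm2b* table, where 3.89% of 13446 tested genes were called higher in hippocampi, 11.4% of 12227 in neurospheres and 4.73% of 15691 in cortices. With adjusted p values (limma) the counts were 10, 8 and 2, where 2.94%, 9.13% and 0.370% of all tested genes were called higher. The groups were fully separated, with cKO on top, for the 10 genes in each table and for 14.9%, 32.1% and 22.0% of all tested genes. Over the 11213 genes tested in all 3 tables, 55 (0.491%) were called higher in each, the 10 and 45 others, and 3 (0.0268%) were called lower in each. Since the genes were picked on these contrasts, nothing is read from these counts. Ordered by the smallest of their 3 differences among the 55, *Pth1r* was 1st, *Scarf2* 3rd and *Cmtm8* 7th, while *Card10*, *Cebpa* and *Acbd4* were 44th, 49th and 54th. The median difference was 0.57 in hippocampi (0.41 to 1.75) and 0.63 in cortices (0.43 to 2.03), and in neurospheres 0.87 over the 9 genes other than *Crip1* (0.55 to 1.58). Without cKO neurospheres 1 the median of these 9 was 1.26 (0.54 to 1.61). Of these 9, 8 had a higher FPKM in cKO library 2 than in cKO library 1, and *Chrna4* was at 11.3 and 11.4.

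**Figure D3:**
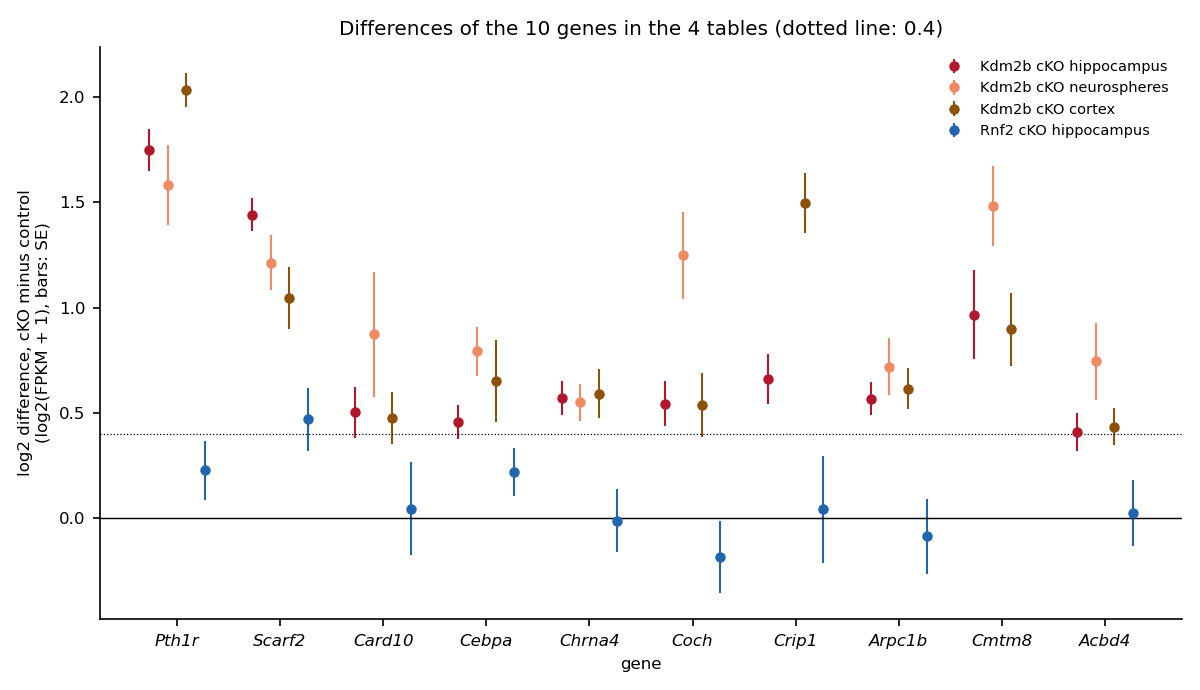
Difference of cKO and control on the log2(FPKM + 1) scale (vertical axis, points, with bars for the SE) for the 10 genes (horizontal axis) in the 4 tables, with a dotted line at 0.4. The *Kdm2b* points run from 0.41 to 2.03 by the choice of genes, whereas the *Rnf2* points run from -0.19 to 0.47. *Crip1* in neurospheres, listed at 0 in controls, and *Cmtm8* in *Rnf2* hippocampi, under the filter, have no point.

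In *Rnf2* cKO hippocampi, which the choice of genes did not use, 1 of the 9 tested genes was called higher and none lower, where 2.86% of 15764 tested genes were called higher and 1.85% lower. The gene was *Scarf2*, at 1.67 and 1.98 FPKM in controls and 2.87 and 2.93 in cKO, from 96 and 118 against 182 and 182 reads. Both cKO libraries lay above both controls, at 1.59 times their mean, a log2 difference of 0.47 (95% interval 0.09 to 0.85, limma adjusted p = 0.679). The call did not hold over all libraries: the difference was 0.55 and kept its call without control 2, and was 0.39, 0.48 and 0.46 with the call lost without control 1, cKO 1 and cKO 2. In this table no gene of 15764 passed the adjusted threshold in limma (0.00%), and 1121 (7.11%) had an unadjusted p under 0.05. With limma-voom on recovered reads 4 genes passed the adjusted threshold, and 402 were called higher and 354 lower without adjustment.

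*Pth1r* stood at 3.11 and 2.70 FPKM in control and 3.50 and 3.63 in *Rnf2* cKO hippocampi. Both cKO libraries were above the controls by a small margin, a log2 difference of 0.23 (95% interval -0.12 to 0.58, limma adjusted p = 0.762). *Cebpa* had the same order, with 6.52 and 6.29 FPKM in controls and 7.46 and 7.76 in cKO (0.22, interval -0.07 to 0.51, limma adjusted p = 0.737). *Coch* lay the other way, at 2.96 and 2.21 FPKM in controls and 2.10 and 2.16 in cKO (-0.19, interval -0.61 to 0.24), and the difference was -0.035 without control 1 and -0.34 without control 2. These 3 differences did not pass the test, and groups separated with cKO on top in 19.5% and with cKO at the bottom in 18.7% of all tested genes.

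Of the other genes, *Chrna4* measured 3.10 and 2.60 FPKM in controls and 2.77 and 2.84 in *Rnf2* cKO hippocampi (-0.01, 95% interval -0.38 to 0.36). *Arpc1b* had 3.42 and 2.46 FPKM in controls and 2.86 and 2.51 in cKO (-0.09, interval -0.53 to 0.36), and *Acbd4* 3.23 and 2.63 against 3.19 and 2.78 (0.02, interval -0.37 to 0.42). Control and cKO values overlapped for all 3. *Card10* (0.467 to 0.796 FPKM, difference 0.04, interval -0.50 to 0.59) and *Crip1* (0.423 to 0.967 FPKM, difference 0.04, interval -0.59 to 0.67) were low, and *Crip1* rests on 33 and 15 against 22 and 32 reads, so a moderate difference was not detectable at this depth. *Cmtm8* was at 0.570 and 0.435 FPKM in controls and 0.302 and 0.509 in cKO, under the filter. Over the 9 genes 6 differences were positive and 3 negative, with a median of 0.04 beside -0.00024 over all tested genes. The sign of this median rests on single libraries, since it was 0.19 without control 1 and -0.10 without control 2.

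Set side by side, the 2 hippocampal comparisons gave 1.75 and 0.23 for *Pth1r*, 1.44 and 0.47 for *Scarf2*, 0.57 and -0.01 for *Chrna4*, and 0.57 and -0.09 for *Arpc1b*, with *Kdm2b* first. They gave 0.46 and 0.22 for *Cebpa*, 0.50 and 0.04 for *Card10*, 0.54 and -0.19 for *Coch*, 0.66 and 0.04 for *Crip1*, and 0.41 and 0.02 for *Acbd4*. The *Kdm2b* values are those that selected the genes, and the *Rnf2* values are not. The upper end of the *Rnf2* interval was 0.58 for *Pth1r* and 0.85 for *Scarf2*. The difference between the 2 knockouts was not tested. The 2 comparisons also differ in sex, with *Xist* at 71.0 to 122.3 FPKM in *Rnf2* libraries and at most 0.0732 in *Kdm2b* hippocampi other than cKO 1. Control levels were not alike in the 2 tables, which were made separately and define gene entries differently, so a ratio of levels across them holds that difference too. Control means of *Crip1* were 18.3 FPKM in the *Kdm2b* and 0.695 FPKM in the *Rnf2* table, a ratio of 26.3, and those of *Arpc1b* were 10.7 and 2.94, a ratio of 3.63, where the median gene had a ratio of 1.62 (5th to 95th percentile 0.757 to 6.50). Of the 45 other genes called higher in all 3 *Kdm2b* tables, 44 were tested in *Rnf2* hippocampi, with 4 called higher, none lower and a median of 0.10. Over all genes tested there, 2.86% were called higher and 1.85% lower, with a median of -0.00024.

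Markers of other cell types moved with genotype in some tables. Over all tested genes, 3.89% were called higher and 2.25% lower in *Kdm2b* hippocampi. These shares were 11.4% and 13.2% in neurospheres, 4.73% and 2.28% in cortices, and 2.86% and 1.85% in *Rnf2* hippocampi. In cKO cortices all 10 markers of meningeal fibroblasts were called higher, with a sum of 2.37 to 3.73 FPKM in controls and 36.7 to 53.4 in cKO, along with 4 of 10 endothelial markers (42.1 to 44.0 against 66.7 to 68.5) and 3 of 7 mural markers (32.7 to 33.8 against 48.1 to 57.5). In *Kdm2b* hippocampi none of these 3 lists had a called marker, and the meningeal sum was 55.1 to 72.7 FPKM in controls and 44.2 to 69.1 in cKO. Neurospheres had 5.45 to 6.58 FPKM of meningeal markers in controls and 4.69 to 6.71 in cKO, mostly *Foxc1*, with *Col1a2*, *Col3a1*, *Lum* and *Aldh1a2* at 0 in controls. *Rnf2* hippocampi went the other way, with 5 of 10 meningeal markers called lower (49.3 to 51.3 against 26.1 to 37.7 FPKM) and 2 of 7 mural markers lower (70.7 to 77.3 against 51.5 to 60.9). Besides microglia, lists with calls in *Kdm2b* hippocampi were choroid plexus (2 of 4 tested higher, 7.48 to 19.1 against 8.87 to 61.2 FPKM) and thalamus (2 of 4 higher, 26.1 to 29.9 against 36.9 to 40.1). Neural progenitors had 3 of 6 called higher there, with sums that overlap (973 to 1058 against 980 to 1109), and neocortex layers 1 of 6 lower. Neuron markers had no call in *Kdm2b* hippocampi (1426 to 1566 against 1119 to 1404 FPKM) or cortices (1408 to 1429 against 1324 to 1351). In neurospheres they summed to 225 to 234 against 167 to 196 FPKM, with 1 of 5 higher and 2 lower. Progenitor markers summed to 3704 to 4120 against 5134 to 6992 in neurospheres, with 2 of 6 higher and 1 lower. Neuron sums overlapped in *Rnf2* hippocampi. In cortices erythroid cells (3 of 5 higher, 435 to 454 against 623 to 711) and neural progenitors (1 of 6 higher) had calls. The 1 tested choroid plexus marker was called higher there, and 1 of 4 hippocampus markers lower. The part of these cells in the values of the 10 genes was not tested.

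**Figure D4:**
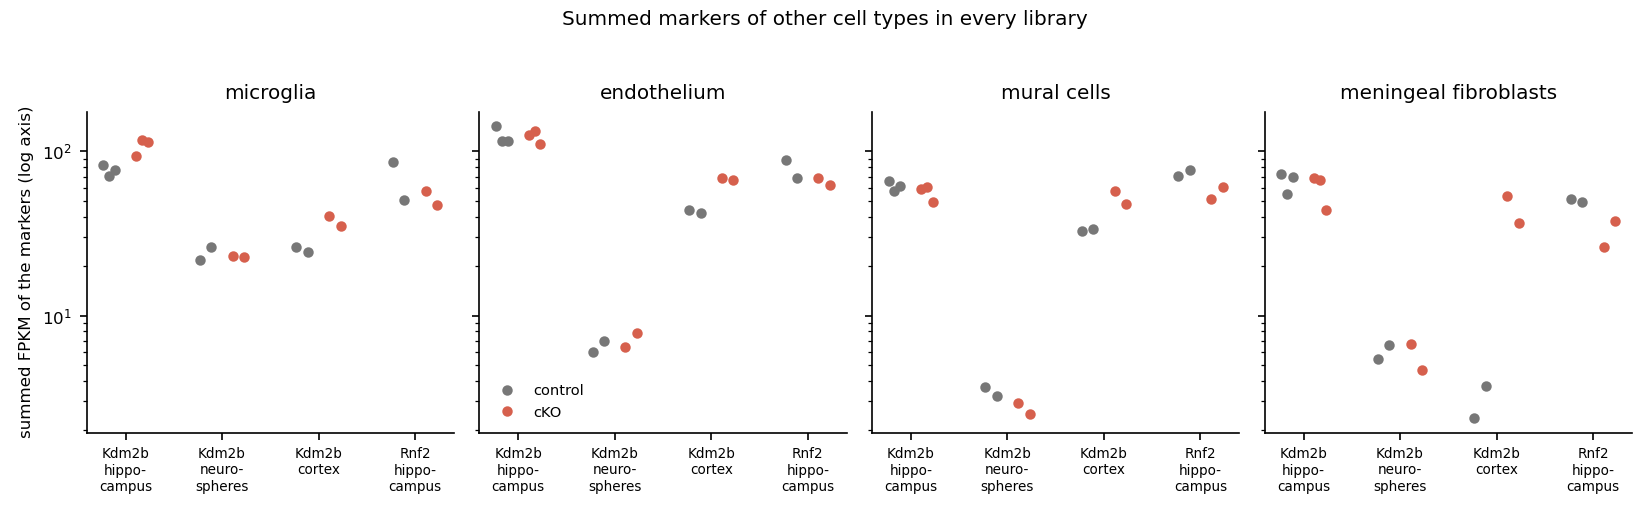
Summed FPKM of the marker lists of microglia, endothelium, mural cells and meningeal fibroblasts (vertical axis, log scale) in every library of the 4 tables (horizontal axis), in grey for controls and red for cKO. Meningeal markers in cortices stand at 2.37 to 3.73 FPKM in controls and 36.7 to 53.4 in cKO, while those in *Kdm2b* hippocampi overlap between groups.

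Paralogs, ligands and complex partners of the 10 genes, 66 in all, were then read in the same tables. In hippocampi 45 of them were tested and 3 called (6.67%), against 6.14% of all genes, 3.89% higher and 2.25% lower. The shares were 27.0% of 37 in neurospheres (all genes 24.6%, with 13.2% lower), 7.69% of 39 in cortices (7.01%, with 2.28% lower) and 4.76% of 42 in *Rnf2* hippocampi (4.71%). Their median differences of 0.05, 0.02, 0.07 and -0.05 lay near those of all genes, at 0.01, -0.01, -0.01 and -0.00024. The relatives were thus called about as often as other genes, whereas the 10 genes were picked for their calls.

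The other subunits of the Arp2/3 complex gave the plainest contrast with a picked gene. All 8 were tested in each table and none was called, with medians of -0.15 in *Kdm2b* hippocampi, 0.14 in neurospheres, 0.04 in cortices and -0.07 in *Rnf2* hippocampi. In *Kdm2b* hippocampi all 8 had every cKO library below every control and 7 had an unadjusted limma p under 0.05. Of these, *Arpc5* (-0.28, limma adjusted p = 0.0144) and *Arpc3* (-0.19, limma adjusted p = 0.0464) passed the adjusted p but were under the fold threshold. Over all 13446 genes tested there, 3090 had an unadjusted limma p under 0.05. The share of all genes with every cKO library below every control is not given here, so the separation of the 8 is a description. *Arpc1a*, the paralog that fills the same place in the complex as *Arpc1b*, differed by -0.08, -0.00, -0.03 and -0.13. *Chrnb2*, the β2 subunit that usually pairs with α4, differed by 0.01, -0.11, -0.01 and 0.06, and none of the nicotinic subunits tested (5, 3, 4 and 5 of 15) was called except *Chrna7*, which was lower in cortices at 7.68 and 8.01 FPKM in controls and 5.46 and 5.91 in cKO (-0.40, limma adjusted p = 0.158). Of the parathyroid hormone ligands and the second receptor, at most 2 of 4 passed the filter in a table and none was called.

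Among transcription factors of the C/EBP family, the relatives did not move as *Cebpa* did in neurospheres. In neurospheres *Cebpd* fell from 28.8 and 24.5 FPKM to 7.34 and 7.29 (-1.73, SE 0.11, limma adjusted p = 0.00118) and *Cebpb* from 21.2 and 16.9 to 10.8 and 11.999 (-0.68, limma adjusted p = 0.0174), while *Ddit3* was at 33.2 and 40.3 against 14.2 and 26.9 (-0.87, limma adjusted p = 0.0771). *Cebpb* was called higher in cortices, from 0.302 and 0.407 to 0.948 and 0.924 FPKM (0.52, limma adjusted p = 0.238), and in *Rnf2* hippocampi, from 1.02 and 0.684 to 1.61 and 1.97 (0.59, limma adjusted p = 0.679). None of the 4 tested was called in *Kdm2b* hippocampi, where all 4 differences were positive (0.15 to 0.35).

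The CMTM family had a second member with higher values in tissue. *Cmtm7* measured 3.15, 1.78 and 2.77 FPKM in control and 3.99, 4.55 and 5.56 in cKO hippocampi (0.69, SE 0.16, limma adjusted p = 0.0339), and 0.867 and 0.790 against 3.11 and 2.41 in cortices (1.04, SE 0.13, limma adjusted p = 0.0828). *Cklf* was called higher in hippocampi (0.42, limma adjusted p = 0.112) with values that overlap between groups. In neurospheres *Cmtm4* rose (0.62, limma adjusted p = 0.00782) and *Cmtm5* fell (-0.60, limma adjusted p = 0.0407).

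LIM proteins related to *Crip1* went in both directions. *Crip2* rose in neurospheres from 17.9 and 20.0 FPKM to 48.2 and 70.7 (1.57, SE 0.18, limma adjusted p = 0.00404), in both cKO libraries. *Csrp1* fell there from 83.3 and 74.6 to 30.0 and 30.7 (-1.35, limma adjusted p = 0.00131). *Crip3* was called lower in *Kdm2b* hippocampi (-0.56, limma adjusted p = 0.0794) and *Csrp2* higher in *Rnf2* hippocampi (0.68, limma adjusted p = 0.498), and neither passed the adjusted threshold. Single calls in neurospheres among the other groups were *Dcbld1*, which like *Coch* carries an LCCL domain (0.57, limma adjusted p = 0.00967), *Megf10*, an engulfment receptor with EGF-like repeats (-0.80, limma adjusted p = 0.00888), and *Acbd5*, a peroxisomal relative of *Acbd4* (-0.52, limma adjusted p = 0.016). None of the tested CARD scaffolds, *Bcl10* and *Malt1* was called in any table, though the only CARD scaffold tested in *Kdm2b* hippocampi and neurospheres was *Card9* in an entry joined with another gene, whose value does not stand for *Card9* alone.

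**Figure D5:**
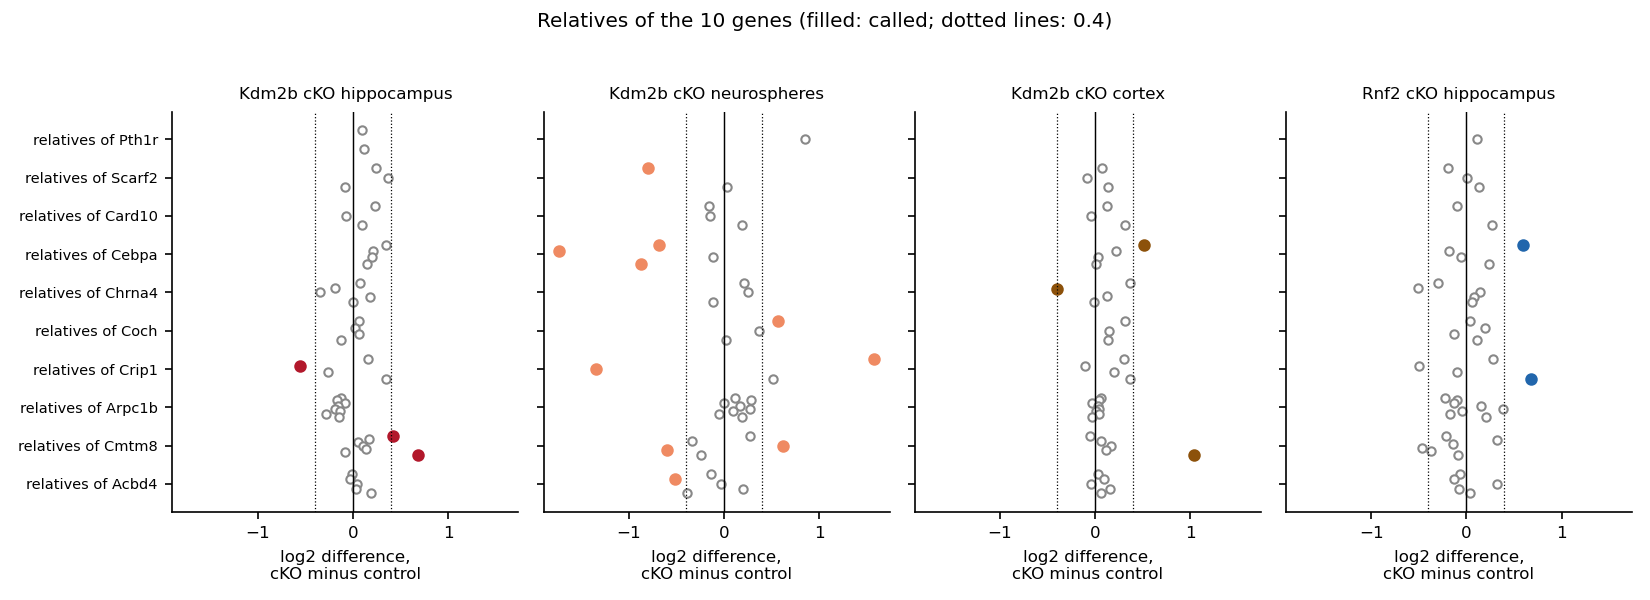
Log2 difference, cKO minus control (horizontal axis), of the tested relatives of each gene (rows) in the 4 tables (panels), with filled points for called genes and dotted lines at 0.4 in either direction. The relatives of *Arpc1b*, the other 8 Arp2/3 subunits, are all open, and the filled points of neurospheres lie on both sides, 3 higher and 7 lower.

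The nearest protein-coding gene on each side of each of the 10 genes, among genes tested in all tables, gave 20 neighbours. In *Kdm2b* hippocampi 1 was called higher (5%), in neurospheres 2 (10%), in cortices 1 (5%) and in *Rnf2* hippocampi 1 (5%), beside the 3.89%, 11.4%, 4.73% and 2.86% of all genes called higher, and none was called lower in any table. *Plcd3*, a phospholipase C whose gene body begins 24 bases from that of *Acbd4* in the opposite orientation, accounts for 1 call in each *Kdm2b* table. It measured 1.75, 2.82 and 1.92 FPKM in control and 3.25, 3.25 and 4.22 in cKO hippocampi (0.54, SE 0.15, limma adjusted p = 0.0556), 0.512 and 0.421 against 1.29 and 1.61 in neurospheres (0.74, SE 0.18, limma adjusted p = 0.0348) and 1.26 and 1.03 against 1.89 and 2.22 in cortices (0.51, SE 0.12, limma adjusted p = 0.213). All cKO libraries were above the controls in each. In *Rnf2* hippocampi *Plcd3* differed by -0.04 (SE 0.21), beside 0.02 for *Acbd4*.

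*Crip2* is the neighbour of *Crip1*, at 810 bases, and was the second call in neurospheres. *Pdap1*, which overlaps *Arpc1b*, was called higher in *Rnf2* hippocampi, from 8.82 and 9.30 FPKM to 17.7 and 16.5 (0.84, SE 0.11, limma adjusted p = 0.415), and differed by -0.08, 0.16 and 0.23 in the *Kdm2b* tables, where *Arpc1b* differed by 0.57, 0.72 and 0.61. The neighbours of *Pth1r* (*Ccdc12* at 10479 and *Lrrfip2* at 370447 bases), *Scarf2* (*Klhl22* at 3900 and *Car15* at 26983), *Card10* (*Mfng* at 1663 and *Cdc42ep1* at 39582), *Chrna4* (*Arfgap1* at 35854), *Coch* (*Scfd1* and *Strn3*), *Cmtm8* (*Cmtm6* and *Gpd1l*) and *Cebpa* (*Cebpg* and *Slc7a10*) were called in none of the 4 tables, nor were *Arpc1a* at 5454 bases from *Arpc1b*, *Tmem121* beside *Crip1* and *Hexim1* beside *Acbd4*. Some entries of the *Kdm2b* hippocampal and neurosphere tables join several genes, and in both tables the values of *Car15* and *Arfgap1* are those of an entry shared with a further gene, as is that of *Pdap1* in neurospheres, so they do not stand for these genes alone. The same holds for *Arpc4* in both tables and *Chrnb2* in neurospheres, and for none of the 10 genes.

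Genes with a profile like that of the 10 were ranked by Pearson's r over the 18 libraries, each value centred on the controls of its own table, among 11045 genes. The closest were *Stx3* (r = 0.966), which encodes a syntaxin of membrane fusion, *Plcb3* (0.962), a phospholipase C, *Slc1a5* (0.957), a neutral amino acid transporter, *Esyt1* (0.954), an extended synaptotagmin, and *Trim36* (0.949), a ubiquitin ligase. The points share libraries with the choice of the 10 genes, so r is a description. *Stx3* measured 5.21, 5.26 and 4.79 FPKM in control and 8.43, 8.54 and 8.25 in cKO hippocampi and differed by 0.63, 1.41, 1.10 and -0.04 in *Kdm2b* hippocampi, neurospheres, cortices and *Rnf2* hippocampi. *Slc1a5* differed by 0.99, 1.38, 0.97 and 0.30. These 5 were separated with cKO on top in each *Kdm2b* table, as were 307 of the 11213 genes tested in all 3. None was called in the *Rnf2* table, where 4.71% of all tested genes were. The ranking used all 18 libraries, those of the *Rnf2* table among them, so nothing is read from either.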

How the data were processed

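RNA-seq of 18 libraries was analysed. Per the methods, hippocampal and neurosphere reads went through cutadapt, STAR (mm10) and Cufflinks 2.2.1, with which the authors made the FPKM values, and their own calls used DESeq2. For the cortical and *Rnf2* FPKM tables, deposited with gene lengths, the aligner is not given in the sources used here.

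Entries without a gene name were left out, and 1 entry per name was used, that with the highest mean. Genes averaging 0.5 FPKM or more over a table were tested on log2(FPKM + 1) with limma 3.58.1 in R 4.3.3 (lmFit, eBayes with a trend), each table by itself, and p values were adjusted by the Benjamini-Hochberg method. FPKM times length was a whole multiple of 1 step (100% of values within 0.05 read), which gave 18463270 to 21884591 reads per cortical and 14654894 to 16334420 per *Rnf2* library for limma-voom. The files of the other tables give no depth. FPKM depends on the gene models, which differ between tables, so tests were run within tables and levels set across tables are a description. The method was tested on simulated data.

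Alternatives were a pseudocount of 0.1, no filter, a filter of 1 FPKM, equal FPKM totals, median-ratio scaling, sums of entries, adjusted p values, no fold threshold, the replicate number as a block, and each library left out in turn. Deviations of same-numbered libraries correlated at -0.28 to 0.16, so the numbers were not taken as pairs. Named genes are the 10 genes, their called relatives and those that give context, their neighbours, *Kdm2b*, *Rnf2*, *Xist* and the 5 closest profiles. Genes of the intestinal list and marker genes are named beside the values they touch. The 10 genes, the relatives and the marker lists were chosen with earlier results of these data known. Python 3.11.15 with pandas 2.3.3 was used for tables. Some genes are not reported here by name.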

Additional observations from a re-analysis of the deposited data

Results flagged for a closer look

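In 5 relatives of the 10 genes that were called in at least 1 *Kdm2b* table, all cKO libraries lay on one side of the controls in 1 *Kdm2b* table and on the other side in another, and the difference between tables was not tested. *Cebpd* differed by -1.73 in neurospheres and by 0.22 in cortices on the log2(FPKM + 1) scale. *Cebpb* differed by -0.68 in neurospheres and by 0.52 in cortices. *Megf10* differed by -0.80 in neurospheres and by 0.25 in hippocampi, and *Acbd5* by -0.52 in neurospheres and by 0.0902 in cortices. *Chrna7* differed by 0.21 in neurospheres, by -0.34 in hippocampi and by -0.40 in cortices. In each of the 5 genes the neurospheres stand against a tissue. A further 9 relatives that were called in no *Kdm2b* table, 6 of them Arp2/3 subunits, were also separated in opposite directions in 2 of these tables. That difference was not tested either. Separation by itself was common, with cKO on top in 14.9%, 32.1% and 22.0% of all genes tested in hippocampi, neurospheres and cortices. The share of all genes separated in opposite directions was not worked out, so nothing is read from these counts.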

How the results depend on the processing

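No called value of the 10 genes changed sign under an alternative that was run. Over all alternatives, 31 of 550 values of the 10 genes lost a call and 8 changed sign, all 8 uncalled and in *Rnf2* hippocampi with a library left out, where the differences ran from -0.10 to 0.19 for *Card10*, -0.11 to 0.0814 for *Chrna4*, -0.19 to 0.27 for *Crip1*, -0.26 to 0.0892 for *Arpc1b* and -0.0883 to 0.13 for *Acbd4*. The cause of a changed count was not tested, except that a looser or stricter threshold changes it by construction. With adjusted p values 2 of 10 were called in cortices and 0 of 9 in *Rnf2* hippocampi (1 without adjustment). Relatives in hippocampi were then 1 higher (from 2) and 0 lower (from 1), those in cortices 0 higher (from 2) and 0 lower (from 1), and those in *Rnf2* hippocampi 0 (from 2), while neighbours were 0 (from 1) in each of these 3 tables. With no fold threshold relatives were 7 higher and 10 lower in hippocampi, 5 higher in neurospheres (from 3), 5 higher in cortices and 1 lower in *Rnf2* hippocampi (from 0), and neighbours were 4 higher and 1 lower, 3 lower, 2 higher and 1 lower, and 2 higher and 1 lower in the 4 tables. With a pseudocount of 0.1 relatives were 5 higher in neurospheres, 4 higher in cortices and 1 lower in *Rnf2* hippocampi, and neighbours 2 higher in hippocampi, 1 lower in cortices, and 2 higher and 1 lower in *Rnf2* hippocampi. With a filter of 1 FPKM, 1 neighbour was higher in neurospheres (from 2) and 1 relative in cortices. With limma-voom 5 relatives were higher in cortices, and 1 relative and 1 neighbour lower in *Rnf2* hippocampi. In neurospheres, equal FPKM totals gave 5 relatives higher and 4 lower (from 7), moved the median of all genes from -0.01 to 0.09 and changed all calls from 1392 higher and 1620 lower to 1256 and 830, and median-ratio scaling gave 5 relatives higher.

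Same-numbered libraries did not deviate together in 3 of the 4 tables. With the replicate block, 5 relatives were higher in neurospheres and 3 lower in *Rnf2* hippocampi, and the other counts of the 10 genes, relatives and neighbours moved by less than 1.5 times. Over all genes the block changed the calls past the fold threshold and adjusted p from 593 to 366 in hippocampi and from 67 to 43 in cortices, and the unadjusted lower calls in *Rnf2* hippocampi from 291 to 437. Crossed numbers in neurospheres, tried after the data were seen, gave 1445 higher and 1639 lower, against 1380 and 1613 with the numbers as given.

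With each library left out in turn, 9 to 10 of the 10 genes were called in hippocampi, 8 to 9 in neurospheres, 7 to 9 in cortices and 0 to 1 in *Rnf2* hippocampi. Relatives ranged from 1 to 4 higher and 0 to 2 lower in hippocampi, 3 to 6 higher in neurospheres, 2 to 4 higher and 0 to 1 lower in cortices, and 1 to 3 higher and 0 to 4 lower in *Rnf2* hippocampi. Neighbours ranged from 0 to 2 lower in neurospheres, 0 to 4 higher in cortices and 0 to 2 lower in *Rnf2* hippocampi. Without control 2 of the *Rnf2* hippocampi, 808 genes were higher and 772 lower (451 and 291 with it), and without control cortex 1 the count was 1226 higher (742 with it). With 2 libraries per group, a lone library is assumed to vary like the others.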

Other observations

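In library cKO neurospheres 1, 43 protein-coding genes exceeded 3 FPKM while staying under 0.5 FPKM in the other 3 neurosphere libraries, against 0 to 1 in each of those. *Car1* (62.8 FPKM), *Zg16* (48.5 FPKM) and *Tff3* (23.7 FPKM) were the highest of the intestinal epithelium list there.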
